A study of Oryza sativa with 4 samples.

Results

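Cell cycle, DNA replication and histone genes were followed across 4 arrays of rice leaf RNA. The members were all genes whose symbol or synonym in the rice gene table, without the Os prefix, starts with CYCA, CYCB, CYCD, CDKA, CDKB, MCM or ORC plus a number, E2F, H2A. or H2B., or is PCNA. The table held 47 such genes, of which 38 had at least 1 probe set of their own on the array, out of 17905 genes with such a probe set. These 38 were 9 D-type, 3 A-type and 4 B-type cyclins, 3 cyclin-dependent kinases, 5 subunits of the origin recognition complex (ORC), 8 minichromosome maintenance (MCM) genes, PCNA and 5 histone H2B genes. The patterns for E2F and H2A matched 0 genes. Where a gene had several probe sets, the one with the highest mean signal over the 4 arrays stands for it.

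The groups were leaf of rice (Oryza sativa L., cultivar Nipponbare) carrying pActnos/Hmz-OsRR6, labelled overexpressor (2 arrays), and leaf carrying the empty vector pActnos/Hmz, labelled control (2 arrays). Type-A response regulators such as OsRR6 act against signalling by cytokinin, a plant hormone. All plants were primary transformants (T0) regenerated from callus, selected on hygromycin and raised in hydroponics until heading. Days had 12 h light (30 °C) and nights 12 h (25 °C), and leaves were 75 days old. Plants of a T0 generation usually stem from different transformation events. The labels do not say how many plants an array represents, nor whether the replicates are different plants. The p-values therefore measure only how far these samples differ, and that spread may be technical.

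Plant cells enter the cell cycle when D-type cyclins, together with the kinase CDKA, phosphorylate the retinoblastoma-related protein and release E2F transcription factors, which switch on genes of DNA replication. The origin recognition complex then marks origins, MCM2 to MCM7 are loaded there as the replicative helicase, PCNA clamps the polymerase to DNA, and new histones package the copies. A-type cyclins act from DNA replication to mitosis, and B-type cyclins with the plant kinases of class CDKB drive mitosis. Cytokinin is a known promoter of cell division in shoots, and in Arabidopsis it induces a D-type cyclin of class CYCD3. In grass leaves, division is restricted to the base of growing leaves, and fully expanded blades divide little.

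The values are signals on a linear scale, brought by the authors to a common level, with a mean after trimming of 500.1 on every array. Log2 signals of the tested probe sets had a correlation of 0.975 between the arrays labelled overexpressor and 0.988 between those labelled control. The targeted gene itself, OsRR6 (LOC4337372), had a signal of 2264.2 and 1989.4 on the arrays labelled overexpressor and 2558.7 and 2733.2 on the control arrays, so it was not higher on the arrays so labelled, and every direction below is that of the labels. Where this probe set lies is not stated in the sources used here, and it checks the label only if the transgene's transcript holds its sequence. Markers of mature green leaf (rcaA1, CAB2R, PSAG1, PORA and GluTR) were far above background on every array, with a summed signal of 44343 and 42836.6 on the overexpressor arrays against 68450 and 71999.8 on the control arrays. Of these markers 4 of 5 fell, against 13.1% of all tested probe sets.

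The members were mostly higher on the arrays labelled overexpressor. With dim probe sets left out (those with a mean log2 signal below the median of all), 35 of the 38 measured members were tested with limma. Of these, 20 rose (57.1%), 0 fell and 15 did not pass an adjusted p of 0.05, against 15.4% of all 28629 tested probe sets called higher and 13.1% called lower. At an unadjusted p of 0.05, 25 members were higher and 0 lower, against 23.6% and 17.8% of all tested probe sets. The median log2 change of the tested members was 0.69, beside 0.08 for all tested probe sets. Without the filter, over all 38 measured members, 13 rose and 0 fell, the median was 0.69, and 5.54% of all probe sets were called higher and 5.32% lower. In 30 of the 38 measured members both overexpressor arrays read above both control arrays (78.9%, against 30.4% of all probe sets), and in 4 both read below (21.7% of all). Among the 35 tested members these were 29 above (82.9%, against 39.7% of all tested probe sets) and 3 below (28.3% of all). A stricter count, at least 2-fold apart in all 4 pairs of arrays, held CYCD4-1, CYCD3-1, ORC1 and MCM2, which is 4 of 35 members beside 2.31% of tested probe sets. With 2 arrays in each group, the smallest two-sided p of an exact permutation test is 0.333.

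The count of members moved with single arrays and with the scaling. Without control replicate 1, 8 members and 1412 of all probe sets were higher, and without control replicate 2, 12 members and 1519 probe sets were. With the other scalings 29 members (spike controls), 17 (quantile), 17 (cyclic loess) and 15 (median centring) were higher and 0 lower. Of all 28629 tested probe sets, 11533 (spike controls), 4011 (quantile), 3860 (cyclic loess) and 3016 (median centring) were higher. The median change of the members minus that of all probe sets was 0.61, and it lay between 0.60 and 0.67 over the quantile, cyclic loess, median and spike control scalings. It moved more with single overexpressor arrays, at 0.43 without overexpressor replicate 2 and 0.76 without overexpressor replicate 1. The balance over all probe sets did move with scaling, at 4410 higher and 3760 lower as reported, 3016 and 4639 after median centring and 11533 and 2115 after scaling to the spike controls, where the median of all probe sets was 0.39 on the log2 scale.

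Markers of other cell types also moved between the groups. Of 7 tested markers of shoot meristem and young organs, 0 rose and 2 fell (LOG and the homeobox gene OSH1). Of the 8 measured, 4 read below both control arrays on each overexpressor array, and 2 (GRF1 and OSH6) above. Over all probe sets these shares were 21.7% below and 30.4% above. The summed signal over the 8 was 4958 and 6031.2 on the overexpressor arrays and 8770 and 9022.9 on the control arrays. A large part of this difference came from LOG, which read 1871.7 and 2789.5 against 4927.6 and 5038.6. Of 7 tested anther and tapetum markers 4 fell and 0 rose, with a summed signal over 8 markers of 1579 and 1147.7 on the overexpressor arrays and 14593.3 and 15266.3 on the control arrays. Most of this sum on the control arrays came from C6, C4 and RTS. On the overexpressor arrays against the control arrays, C6 read 113.6 and 23.2 against 5288.5 and 5682.4. C4 read 803.9 and 505.8 against 4115.2 and 3960.7, and RTS 10.8 and 3.8 against 3702.3 and 4044.3. MSP1 read above both control arrays on each overexpressor array without passing the test. Of all tested probe sets, 15.4% were called higher and 13.1% lower. The meristem marker WOX4 was at or below background on all 4 arrays, and the anther markers RTS and PTC1 on both overexpressor arrays. The part of these shifts in the results on the members was not tested. In whole leaf RNA, a change in the number of dividing cells and a change in RNA per cell cannot be told apart.

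**Figure D1:**
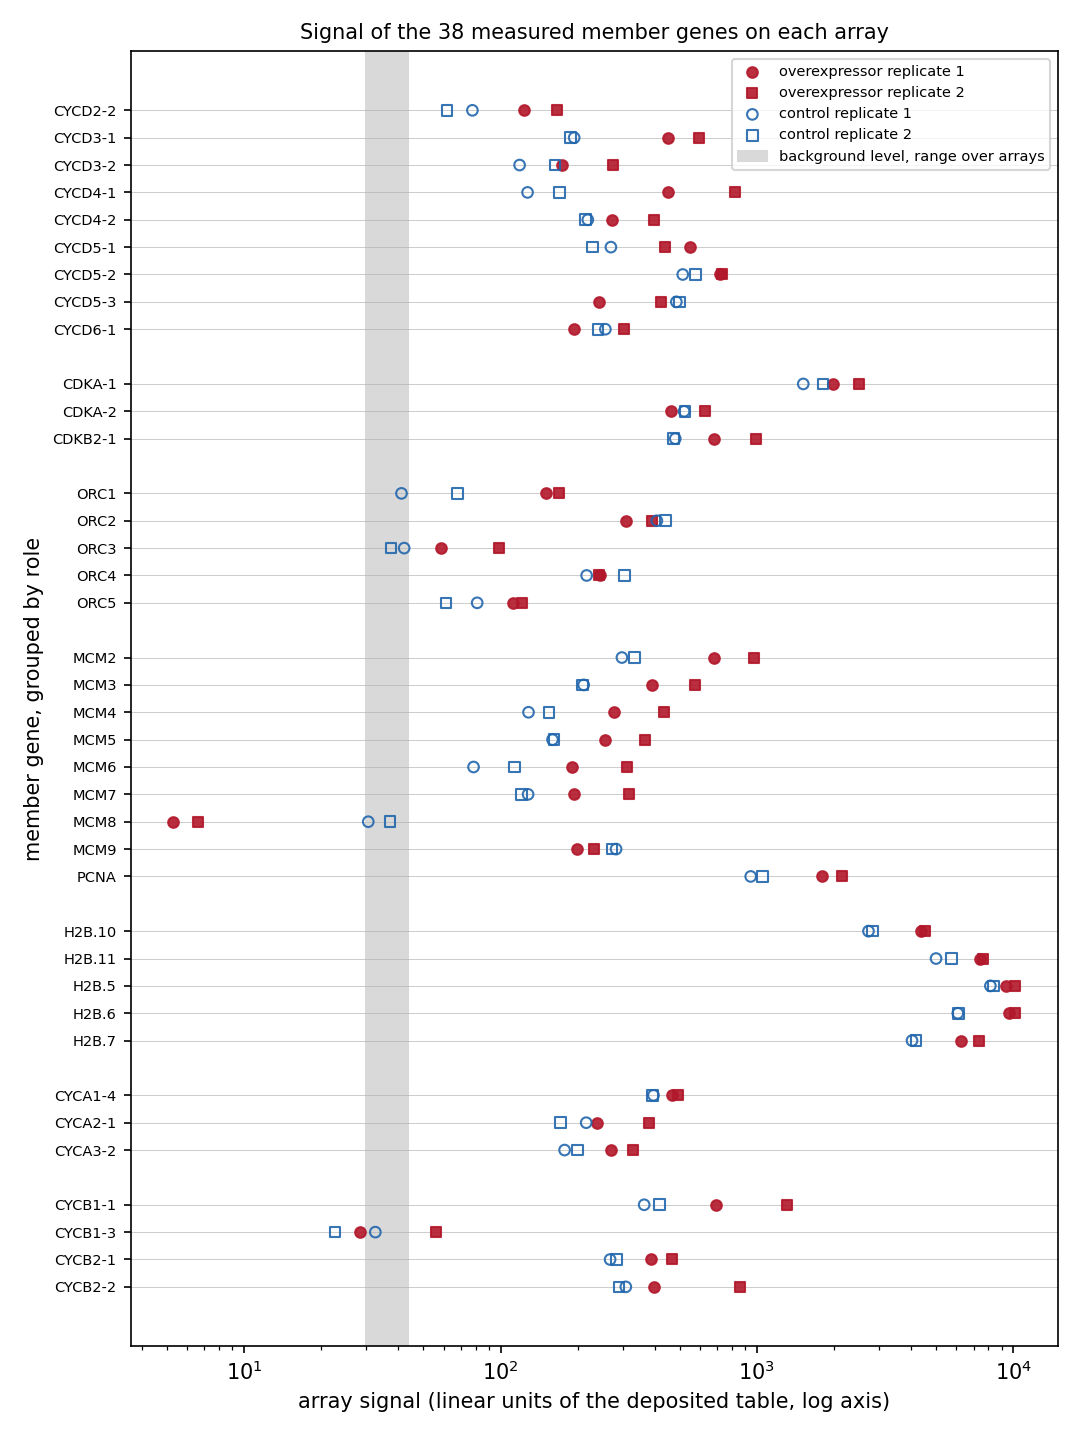
Signal of each of the 38 measured member genes (rows, grouped by role) on the 2 overexpressor arrays (filled) and the 2 control arrays (open), on a log axis. The grey band is the range over arrays of the background level, 30.0 to 43.4. In 30 rows both filled points lie right of both open ones, and in 4 rows (CYCD5-3, ORC2, MCM8, MCM9) both lie left.

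Among the D-type cyclins, which start the cycle, 4 of 9 tested rose, 0 fell and 5 did not pass. CYCD4-1 (LOC4347313) read 449.4 and 820.6 on the overexpressor arrays against 127.5 and 169.5 on the control arrays, which is 2.02 on the log2 scale (SE 0.31, 95% interval 1.28 to 2.76; adjusted p = 0.00551). It had the largest change of all tested members, and its lower overexpressor array still read above both control arrays. CYCD3-1 (LOC4340499) read 448.6 and 591.9 on the overexpressor arrays against 193.8 and 187.7 on the control arrays (log2 change 1.42, SE 0.19, adjusted p = 0.0035). CYCD5-1 read 547.2 and 438.3 against 269.5 and 228.8 (0.97, SE 0.18, adjusted p = 0.0113). CYCD2-2 read 123.5 and 165.7 against 77.7 and 61.8 (1.01, SE 0.30, adjusted p = 0.0463). In none of these 4 genes did the groups overlap, which is no separate support, since the same values gave the calls. CYCD3-1 and CYCD4-1 passed in every alternative that was run. CYCD5-1 lost the call without control replicate 2 (adjusted p = 0.0807, over a range of 0.00192 to 0.0807). CYCD2-2 passed in 8 of 16 (adjusted p from 0.00988 to 0.218). It did not pass under quantile, loess or median scaling, without the filter, with the replicate number as a block, without either control array or without overexpressor replicate 2.

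Paralogs within the D-type classes did not all show the same values. CYCD3-2 read 174.1 and 274 on the overexpressor arrays and 118.7 and 163 on the control arrays (0.64, 95% interval -0.07 to 1.35, adjusted p = 0.155). CYCD4-2 read 273.1 and 396.7 against 219 and 214.1 (0.60, 95% interval 0.06 to 1.13, adjusted p = 0.0905). Both were above the control arrays on each overexpressor array, as were 39.7% of all tested probe sets, without passing the test. Their difference from CYCD3-1 and CYCD4-1 was not tested. CYCD5-2 missed the threshold narrowly (715 and 733.8 against 513.7 and 576.2, log2 change 0.41, adjusted p = 0.0538). CYCD5-3 lay the other way, with 242.9 and 421.9 on the overexpressor arrays against 485.1 and 498 on the control arrays (-0.61, 95% interval -1.24 to 0.01, adjusted p = 0.127). Without overexpressor replicate 2 it passed as lower (-1.01, adjusted p = 0.00148, with a range of 0.00148 to 0.339 over its alternatives). CYCD6-1 read 194 and 304.3 on the overexpressor arrays, on either side of the control values of 256.4 and 240.2, and its log2 change of -0.03 changed sign in 3 alternatives.

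Of the 3 cyclin-dependent kinases measured, the mitotic CDKB2-1 rose and both CDKA genes did not pass, beside 15.4% of all tested probe sets called higher. CDKB2-1 (LOC4346016) read 679.9 and 993.3 on the overexpressor arrays against 480.4 and 472.1 on the control arrays (0.78, SE 0.19, 95% interval 0.32 to 1.25, adjusted p = 0.0265), and it passed in 13 of 17 alternatives, but not without either control array (adjusted p from 0.000372 to 0.108). CDKA-1, a partner of the D-type cyclins, read 1988.4 and 2510.8 against 1516 and 1810 (0.43, 95% interval 0.08 to 0.78, adjusted p = 0.0702). CDKA-2 read 464 and 625.7 against 519.9 and 524.6, so its groups overlapped (0.04, 95% interval -0.37 to 0.46, adjusted p = 0.869). The other probe sets of CDKA-2 had log2 changes of -0.73 and -0.80, neither past the test, and the sign for this gene changed in 6 alternatives.

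The replicative helicase was covered whole, and all 6 of its subunit genes rose. MCM2 (LOC4350526) read 681.4 and 972.5 on the overexpressor arrays against 297.5 and 332.2 on the control arrays (1.36, SE 0.20, 95% interval 0.89 to 1.83, adjusted p = 0.00452). MCM3 read 388.4 and 572.7 against 211 and 208.5 (1.16, SE 0.22, adjusted p = 0.0112). MCM4 read 276.4 and 433.7 against 128.6 and 154.7 (1.27, SE 0.26, adjusted p = 0.0151). In each of these 3 genes overexpressor replicate 2 was the highest array. The groups were apart too, but the calls rest on the same values. MCM6 (190.4 and 310.2 on the overexpressor arrays against 78.5 and 113.7 on the control arrays) had a log2 change of 1.33 (SE 0.32, adjusted p = 0.0249). MCM7 (193.2 and 317.9 against 128.1 and 120.7) had one of 0.98 (SE 0.28, adjusted p = 0.0437), and MCM5 (256.2 and 366.2 against 159.5 and 161.9) one of 0.92 (SE 0.23, adjusted p = 0.0276). The 6 changes thus lay between 0.92 and 1.36 with a median of 1.21, and their intervals overlapped. MCM2 passed in all 17 alternatives. Without control replicate 1 the other 5 lost the call (adjusted p from 0.0513 for MCM3 to 0.136 for MCM7), and without control replicate 2 so did MCM3, MCM5 and MCM7 (up to 0.161). Without overexpressor replicate 2, MCM6 and MCM7 lost it, and without the filter or the trend MCM5, MCM6 and MCM7 did. MCM7 also lost it under quantile, cyclic loess and median scaling, and passed in 8 of 16 alternatives.

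The MCM relatives outside that helicase did not rise. MCM9 (LOC4340503), which is separated from CYCD3-1 in gene order by 5 others, read 198.5 and 230.6 on the overexpressor arrays against 282.3 and 272.3 on the control arrays (-0.37, 95% interval -0.80 to 0.07, adjusted p = 0.177). Another of its probe sets had a log2 change of -0.55 (adjusted p = 0.265). MCM8 was too dim to be tested. Its probe set read 5.3 and 6.6 on the overexpressor arrays, where background was 43.4 and 39.2, and 30.5 and 37.1 on the control arrays, where background was 30.0 and 36.8, so it barely left background in the control leaves. The difference between MCM9 and the helicase subunits was not tested.

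PCNA (LOC4331062), the sliding clamp, read 1787.8 and 2147.1 on the overexpressor arrays against 945.8 and 1049.3 on the control arrays. This is 1967 ± 254 on the overexpressor arrays and 998 ± 73.2 on the control arrays (mean ± SD, n = 2 each), 1.97-fold, or 0.97 on the log2 scale (SE 0.13, 95% interval 0.67 to 1.27, adjusted p = 0.0031). The call held in all 17 alternatives, with changes from 0.84 to 1.29.

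Of the 4 tested subunits of the origin recognition complex, which recruits the helicase, 1 rose and 3 did not pass. With 15.4% of all tested probe sets called higher, 1 of 4 says little about the complex as a group. ORC1 (LOC4340349), an ATPase subunit, rose with 149.8 and 169.6 on the overexpressor arrays against 41.1 and 67.8 on the control arrays (1.53, SE 0.33, 95% interval 0.73 to 2.32, adjusted p = 0.0176). Its control values lay close to background, so the ratio is uncertain. It passed in 14 of 16 alternatives, and not without control replicate 1 or without the filter (adjusted p from 0.00485 to 0.0884). ORC5 (111.6 and 121 against 81.1 and 61.3) was 0.69 higher on this scale (95% interval -0.01 to 1.39, adjusted p = 0.125). ORC2 read 307.7 and 390.7 on the overexpressor arrays against 407.3 and 438.9 on the control arrays (-0.28, adjusted p = 0.264), and ORC4 read 245.2 and 242.1 between the control values of 216.7 and 305 (-0.08, adjusted p = 0.821). The signs of ORC2 and ORC4 turned after spike scaling, and without overexpressor replicate 2 ORC2 passed as lower (-0.45, adjusted p = 0.0472, with a range of 0.0472 to 0.902 over its alternatives). ORC3 was below the filter, with 58.4 and 99 on the overexpressor arrays and 42.1 and 37.4 on the control arrays. The differences between ORC genes were not tested.

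**Figure D2:**
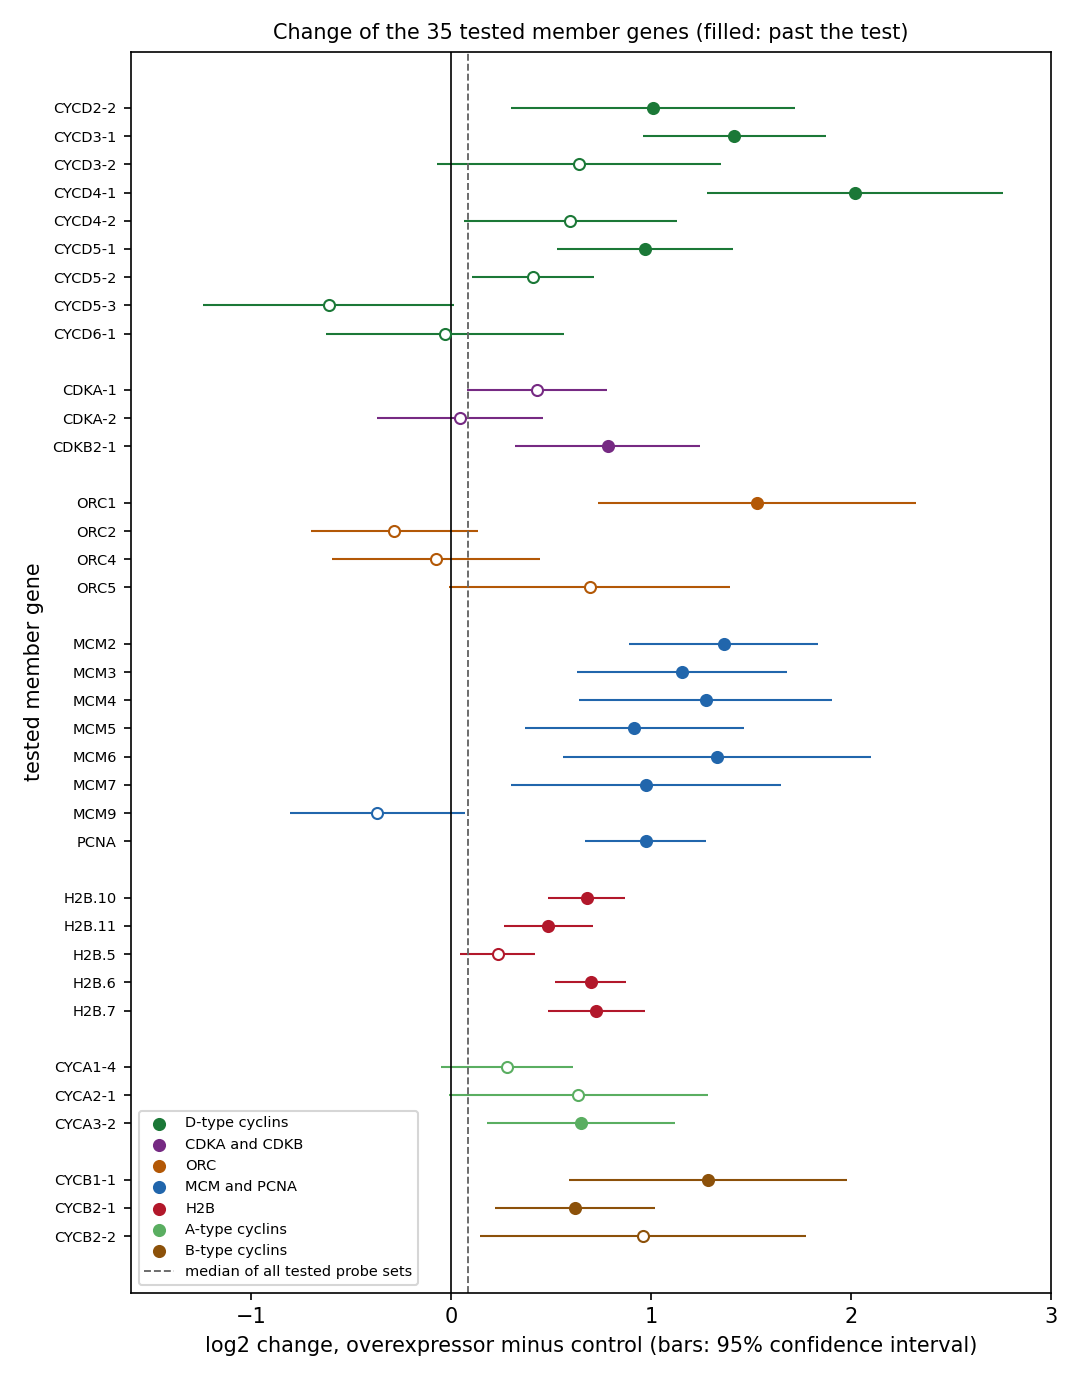
Log2 change (overexpressor minus control) of the 35 tested member genes, grouped by role, with 95% confidence intervals from limma as bars. Filled points are past the adjusted threshold, and the dashed line is the median of all tested probe sets, 0.08. All 6 helicase genes, MCM2 to MCM7, lie between 0.92 and 1.36, and MCM9, ORC2, ORC4, CYCD5-3 and CYCD6-1 lie left of 0.

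Histone H2B, a core component of the nucleosome that is made in large amounts during DNA replication, rose in 4 of 5 tested genes, with replicates closer than for most other members. H2B.7 (LOC4324500) read 6248 and 7373.7 on the overexpressor arrays against 4026 and 4178.4 on the control arrays (0.73, SE 0.10, 95% interval 0.49 to 0.97, adjusted p = 0.00391). H2B.6 read 9592.7 and 10187.3 against 6074.9 and 6112.8 (0.70, SE 0.07, adjusted p = 0.00173). H2B.10 read 4360.2 and 4525 against 2723.1 and 2826.8 (0.68, SE 0.08, adjusted p = 0.00233). These 3 passed in every alternative that tested them and were 1.60-fold to 1.66-fold higher on the overexpressor arrays. H2B.11 rose less in value (7384.9 and 7638.6 on the overexpressor arrays against 4996.1 and 5747.4 on the control arrays, 0.49, SE 0.09, adjusted p = 0.0114), and passed in 15 of 17 alternatives, but not without control replicate 1 or with eBayes without a trend (adjusted p from 0.00198 to 0.117). H2B.5 did not pass (9326.2 and 10119.3 against 8136.4 and 8388.4, 0.23, 95% interval 0.05 to 0.42, adjusted p = 0.0669). Its overexpressor arrays also read above both control arrays, as did those of 39.7% of all tested probe sets.

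H2B.10, H2B.7, H2B.6 and H2B.5 lie close together in the order of the gene table (assembly ASM3414082v1), with 5, 2 and 1 other genes between neighbours. H2B genes are near-identical copies, and 4 of the 9 in the table have no probe set of their own, so a signal may hold transcripts of several of them. The probe set of H2B.7 is of the type that can hybridise to other transcripts (_x_at). The other 4 are of the plain type (_at), and cross-hybridisation was not tested. The 5 genes may therefore not be independent measurements, and values of single H2B genes are uncertain.

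Of 3 tested B-type cyclins 2 rose and 1 did not pass. CYCB1-1 (LOC4327547) read 690.6 and 1311.2 on the overexpressor arrays against 363.3 and 415.8 on the control arrays (1.28, SE 0.29, 95% interval 0.59 to 1.98, adjusted p = 0.0199). CYCB2-1 (LOC4336670) read 387.4 and 466.1 against 267.6 and 282.7 (0.62, SE 0.17, adjusted p = 0.0351). CYCB2-2 read 396.6 and 858.5 against 308.1 and 289.4 (0.96, 95% interval 0.14 to 1.77, adjusted p = 0.0791), where the distance between the overexpressor arrays was larger than that of replicate 1 from the controls. CYCB1-1 passed in 15 of 17 alternatives. It lost the call with eBayes without a trend (adjusted p = 0.0715) and without control replicate 1. CYCB2-1 passed in 9 of 16. It lost the call under cyclic loess or median scaling, without the filter, with eBayes without a trend, without either control array and without overexpressor replicate 2. The gene table lists the name CYCB1-1 for LOC4326914 as well, which is called CYCB1-3 here by its other synonym. CYCB1-3 was near background, with 28.4 and 55.9 on the overexpressor arrays and 32.5 and 22.6 on the control arrays, and was not tested.

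Among the A-type cyclins 1 of 3 rose, beside 15.4% of all tested probe sets, so this count says little about the group. CYCA3-2 read 270.1 and 328.4 on the overexpressor arrays against 177.8 and 199.8 on the control arrays (0.65, SE 0.19, 95% interval 0.18 to 1.12, adjusted p = 0.0496). This call held in 6 of 16 alternatives. It was lost under quantile, loess or median scaling, without the filter and with eBayes without a trend. It was also lost with the replicate number as a block, without _x_at and _s_at probe sets, without either control array and without overexpressor replicate 2. CYCA2-1 read 238.1 and 379.9 against 215.9 and 171.2 (0.64, 95% interval -0.01 to 1.28, adjusted p = 0.126). CYCA1-4, a near neighbour of MCM6 with 3 genes between them, read 464.5 and 492.9 against 395 and 392.3 (0.28, 95% interval -0.05 to 0.61, adjusted p = 0.174). All 3 were above both control arrays on each overexpressor array, which also held for 39.7% of all tested probe sets.

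The overexpressor arrays differed from each other across the members. Overexpressor replicate 2 read higher than replicate 1 in 33 of 35 tested members (94.3%), against 53% of all tested probe sets. The exceptions were CYCD5-1 (547.2 on replicate 1 and 438.3 on replicate 2) and ORC4. The median of replicate 1 minus replicate 2 was -0.40 on the log2 scale for the members and -0.02 for all tested probe sets. By role it was -0.92 for the B-type cyclins, -0.60 for MCM2 to MCM7, -0.53 for the D-type cyclins and -0.09 for H2B. The widest gaps were those of CYCB2-2 (-1.11), CYCB1-1 (-0.92) and CYCD4-1 (-0.86). Between the control arrays, replicate 1 was higher in 13 of the 35, with a median difference of -0.04. The group change was smaller on replicate 1 alone. Without overexpressor replicate 2 the median change of the members was 0.51, beside 0.08 for all tested probe sets. Without overexpressor replicate 1 it was 0.85, beside 0.09.

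**Figure D3:**
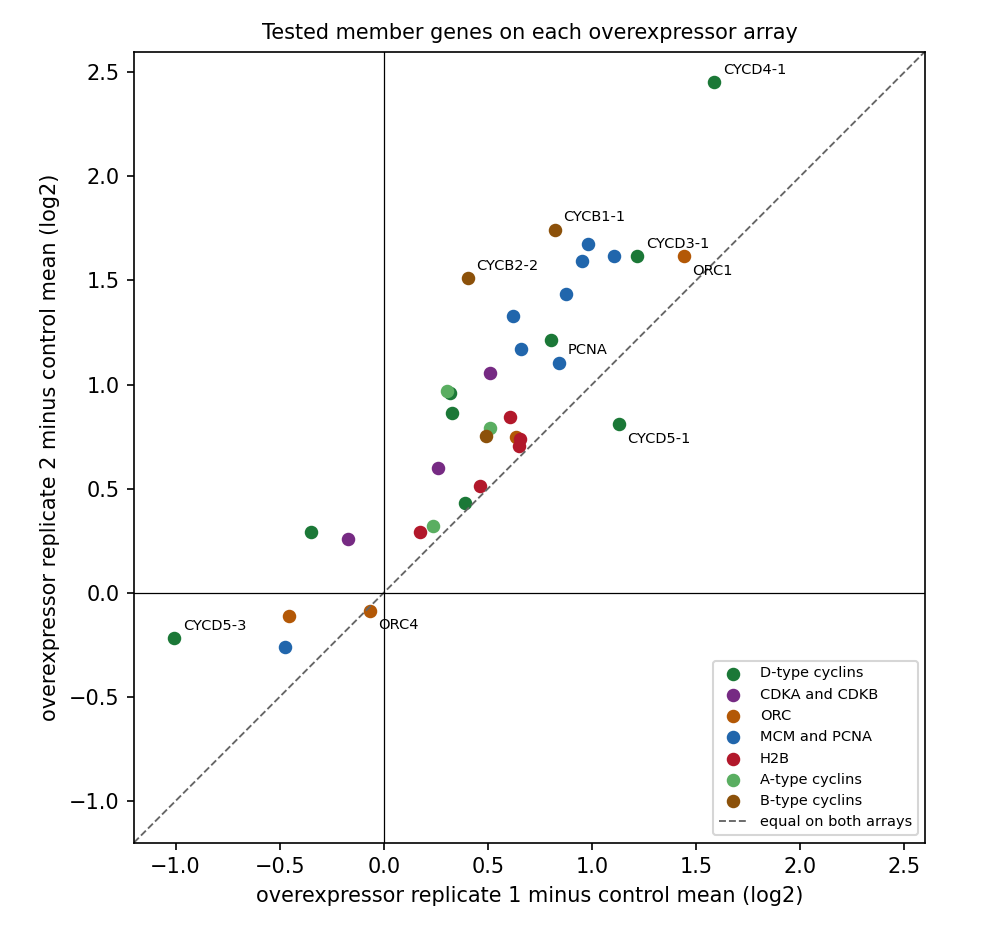
Log2 signal of the 35 tested member genes on overexpressor replicate 1 (horizontal axis) and replicate 2 (vertical axis), each minus the mean of the control arrays, coloured by role. Points above the dashed line read higher on replicate 2, which holds for 33 of 35 members, and the H2B genes lie near the line.

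Of the 38 members 7 have several probe sets, and these did not always give the same call. The dimmer probe set of CYCD5-2 rose (201.3 and 266.4 on the overexpressor arrays against 107.6 and 83.4 on the control arrays, log2 change 1.26, SE 0.26, adjusted p = 0.0152), where the brighter one missed the threshold. The dimmer probe set of CYCB2-2 also rose (202.4 and 282.6 against 78 and 112.5, 1.32, SE 0.29, adjusted p = 0.018). When the probe sets of each gene were averaged both genes passed, and 22 of 35 members were higher. For 6 members the brightest probe set is of a type that can hybridise to several transcripts (_x_at or _s_at), and with such probe sets left out 18 of 34 members were higher.

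Genes of the cell cycle outside the rule were read from a list of 50 measured genes (48 tested) of other cyclins and kinases, inhibitors, DNA synthesis, chromatin and mitosis. Of these, 21 rose (43.8%), 5 fell and 22 did not pass, with a median log2 change of 0.26. Over all tested probe sets 15.4% were called higher and 13.1% lower, with a median of 0.08. Falls were thus no more frequent in this list than over all tested probe sets. The count of higher genes moved with the processing, at 10 after median centring, 33 after spike scaling, 4 without control replicate 1 and 5 without control replicate 2. In DNA synthesis 11 of 19 rose and 1 fell. Replication protein A, which coats single-stranded DNA, rose in 6 of 7 tested genes, with changes from 0.18 to 1.39 over the 7. RPA32, RPA70b, SMR1, CYCP2-1, CENH3 and MYB3R-2 were chosen after their values were seen. RPA32 read 625.3 and 1119.2 on the overexpressor arrays against 331.9 and 317.1 on the control arrays (1.36, adjusted p = 0.0126), and RPA70b read 393.4 and 677.8 against 213.2 and 178.1 (1.39, adjusted p = 0.0131). Both read higher on overexpressor replicate 2 than on replicate 1, but 9 of the 19 DNA synthesis genes read higher on replicate 1. Over the whole list 27 of 48 genes were higher on replicate 2, near the 53% of all tested probe sets. Replication factor C, which loads PCNA onto DNA, rose in 3 of 5 genes. RFC4 read 917.4 and 820.1 on the overexpressor arrays against 435.9 and 501.9 on the control arrays (0.89, SE 0.14, adjusted p = 0.0058), and lost the call without control replicate 1. RPA70b lost it without control replicate 2.

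Inhibitors of the cycle were split. KRP6, which encodes an inhibitor of cyclin-dependent kinases, rose with 470.3 and 540.2 on the overexpressor arrays against 147.1 and 167.7 on the control arrays (1.66, SE 0.18, adjusted p = 0.00174), and of the 4 tested KRP genes 2 rose and 2 did not pass. EL2, another inhibitor of these kinases, fell with 5711.3 and 5523 against 8842.4 and 8608.2 (-0.64, SE 0.07, adjusted p = 0.00214). SMR1 fell too, with 1031.3 and 1142.3 against 1881.8 and 1822.6 (-0.77, adjusted p = 0.0034). In the whole inhibitor and retinoblastoma-related group 3 of 8 rose, 2 fell and 3 did not pass. Over all tested probe sets 15.4% were called higher and 13.1% lower. The 2 retinoblastoma-related genes in the group are not inhibitors of these kinases, and 1 of them rose and 1 did not pass.

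The largest fall in the list was that of TOP6A3, which encodes an A subunit of a DNA topoisomerase VI type enzyme. It read 626.1 and 667.1 on the overexpressor arrays against 2285.2 and 2317.9 on the control arrays (-1.83, SE 0.10, adjusted p = 0.000282). CDKG-1, a kinase of another class than CDKA and CDKB, read 1121.1 and 1470.8 against 3398.8 and 3172 (-1.35, SE 0.14, adjusted p = 0.00161). CYCP2-1 read 454.8 and 406.9 against 676.4 and 706.7 (-0.68, adjusted p = 0.0124), a call that did not hold without either control array or after spike scaling. CYCP4-1, a P-type cyclin as well, rose with 953.3 and 1042.9 against 459.3 and 525.8 (1.02, SE 0.13, adjusted p = 0.00305). Of 17 tested genes for other cyclins and kinases 6 rose, 2 fell and 9 did not pass. Among all tested probe sets 15.4% were called higher and 13.1% lower, so falls were no more frequent among these 17 genes. The centromere histone CENH3 rose with 394.5 and 528.3 on the overexpressor arrays against 258.7 and 307 on the control arrays (0.69, adjusted p = 0.0437), with 1 of 3 chromatin genes past the test. That call was lost in 8 of 16 alternatives, among them without either control array or overexpressor replicate 2. The mitotic regulator MYB3R-2 did not pass (0.04, 95% interval -0.24 to 0.32).

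**Figure D4:**
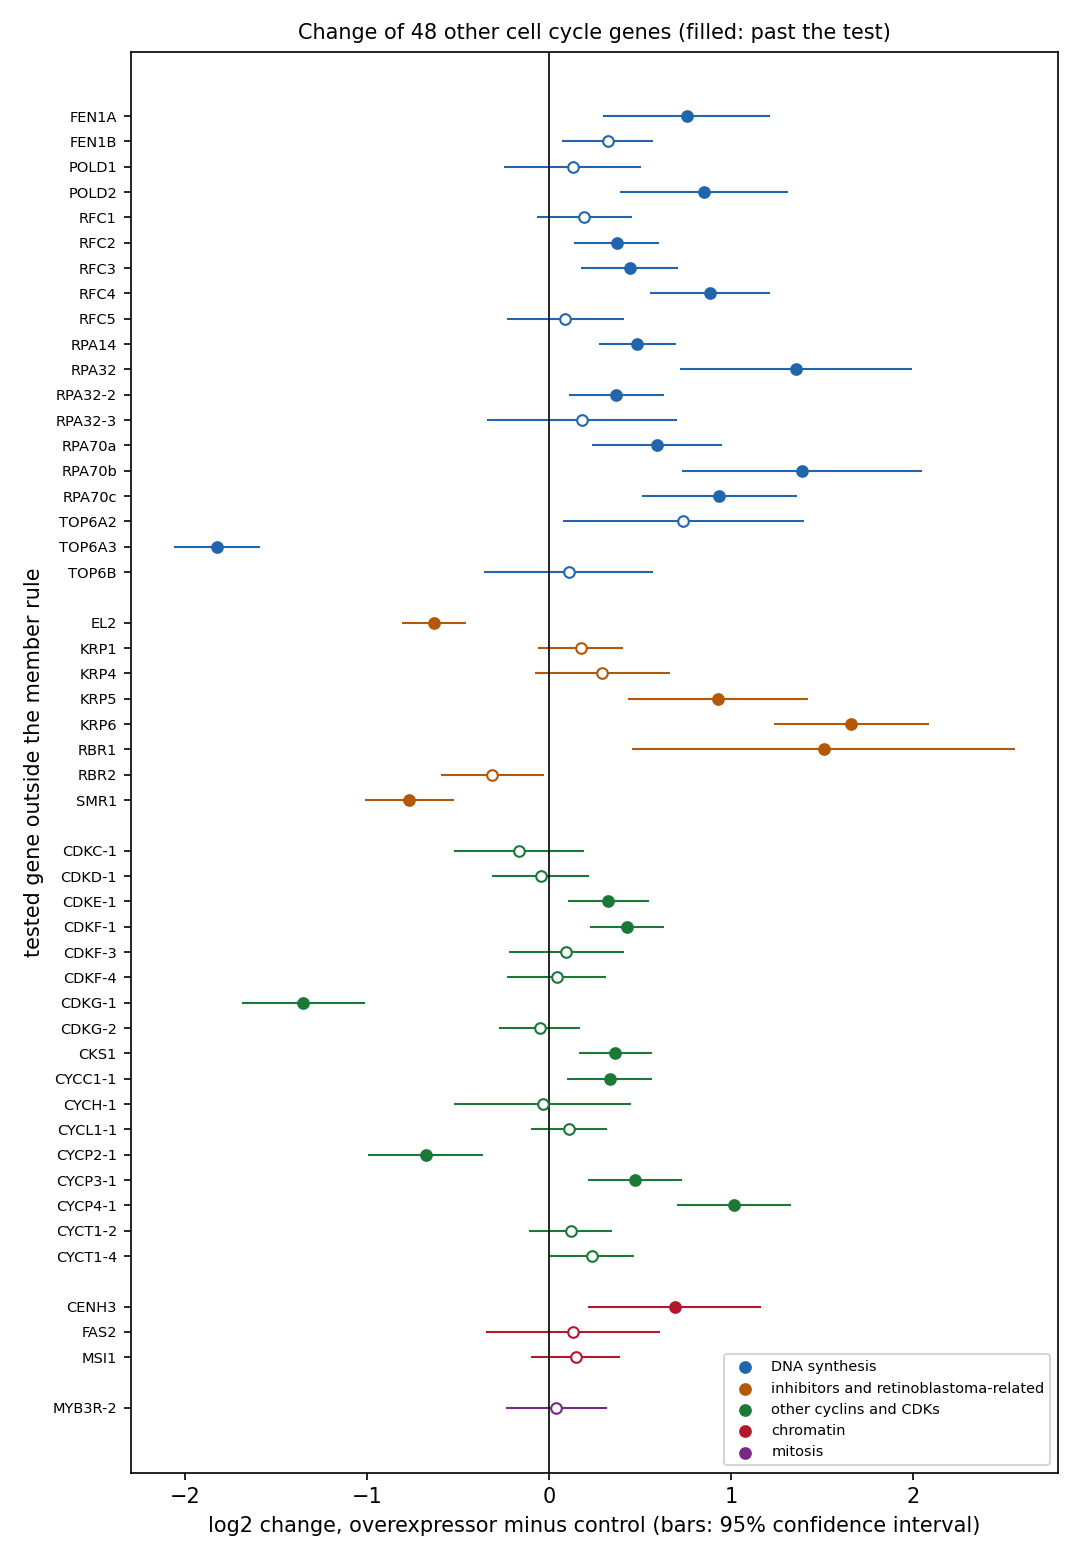
Log2 change (overexpressor minus control) of the 48 tested cell cycle genes outside the rule, grouped by role, with 95% confidence intervals from limma as bars and filled points past the adjusted threshold. The DNA synthesis genes lie between 0.09 and 1.39 apart from TOP6A3 at -1.83, and the inhibitors lie on both sides of 0, from EL2 and SMR1 to KRP6 at 1.66.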

How the data were processed

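Per the labels' protocols, about 10 µg of total RNA from each of the 4 leaf samples was labelled with biotin and hybridised to a single-colour array. The deposited table holds an intensity per probe set on a linear scale, which the authors had brought to a common level. Which software made it is not given in the sources used. Genes came from the platform annotation, in which 34850 of 57381 probe sets are not listed, 22436 have a single gene and 95 several. Symbols and gene order came from RefSeq's table for assembly ASM3414082v1.

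The intensities were kept as deposited. Tests used log2(intensity + 3.6), where 3.6 is the 10th percentile over all arrays, so that changes of dim genes are understated. After leaving out 123 control probe sets and those below the median of the mean log2 value, 28629 were fitted with limma 3.58.1 in R 4.3.3 (lmFit, eBayes with a trend), with two-sided p-values, Benjamini-Hochberg adjustment over all of them and a threshold of 0.05. Background is the 95th percentile of 69 control probe sets for transcripts foreign to rice. The procedure was tested on simulated data. Alternatives covered pseudocount, scaling, filter, spread model, replicate block, each array left out, and choice of probe set. From the list of other genes, 2 pattern matches known under other functions were left out (CYCLOPS and an actin regulator named NAP1). The genes given with all arrays were the 5 markers of the label (PCNA, MCM2, CYCD3-1, CYCD4-1 and H2B.7), up to 3 called members per role, members with the widest gap between overexpressor arrays and, of the other genes, the 3 with the smallest p in each direction. Further members are given for completeness. Members, lists and rules were chosen with earlier results of these data known, and the background level likewise. Promoter motifs were not analysed here. The number of arrays limits the precision.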

Additional observations from a re-analysis of the deposited data

How the results depend on the processing

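Of the 20 members called higher, 7 (CYCD3-1, CYCD4-1, H2B.10, H2B.6, H2B.7, MCM2 and PCNA) passed in every one of the up to 17 alternatives that tested them, and 13 lost the call in at least 1. The number higher was 13 of 38 with no filter, 9 of 12 tested with the filter at the 75th percentile and 12 with eBayes without a trend, and it ranged from 8 to 27 when 1 array was left out, while the number lower ranged from 0 to 2. Of all probe sets, 3174 of 57258 were higher with no filter and 3201 of 14315 with the filter at the 75th percentile. A fit without an array leaves a lone sample in 1 group and assumes that it varies like the other group. The members' median was 1.00 after spike scaling and 0.51 to 0.85 with an array left out. The higher count of the other cell cycle genes was 10 after median centring, 33 after spike scaling, 6 without a trend and 4 to 22 with an array left out. Over all probe sets, spike scaling gave 11533 higher and 2115 lower, eBayes without a trend gave 2580 and 2461, and leaving out an array gave 1412 to 6152 higher and 1607 to 5233 lower. With the replicate number as a block (replicate block), 20 members were higher, where CYCD2-2 and CYCA3-2 lost the call and CDKA-1 and CYCB2-2 gained it, 17 other cell cycle genes were higher, and 4236 probe sets were higher and 3695 lower; same-numbered samples share only a number (correlation of their deviations -0.02). Signs turned for 4 members, none of them called. CDKA-2 was -0.017 under quantile normalization, -0.040 under cyclic loess, -0.058 after median centring, -0.17 without overexpressor replicate 2 (0.26 without replicate 1), -0.49 with the mean of its probe sets and -0.73 without _x_at and _s_at probe sets. CYCD6-1 was 0.28 after spike scaling, 0.02 without control replicate 1 and 0.29 without overexpressor replicate 1 (-0.35 without replicate 2). ORC2 was 0.029 and ORC4 0.23 after spike scaling, and ORC4 was 0.17 without control replicate 2 (-0.32 without replicate 1). Of the other genes, FEN1A turned sign although it was called higher by its brighter probe set (0.75, adjusted p = 0.0289 with limma). With the mean of its 2 probe sets it was -0.12, so its call depends on the probe set. The cause of these moves was not tested, except that a stricter filter tests fewer genes. Dim genes (MCM8, CYCB1-3, ORC3) were limited by their signal over background.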
